A study of Mus musculus with 11 samples.

Results

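The channel genes described here are those whose mouse symbol begins with Kcn, Scn (alpha and beta subunits, with a final a or b) or Hcn followed by the family letters and number, and that had at least 10 counts in 2 or more of 11 left ventricular RNA-Seq libraries. Of 25006 genes in the count files, 110 carried such a symbol, 68 reached the minimum and are the members, and 42 did not. Of those below the minimum, 38 reached 10 counts in no library and 4 in 1 library, whereas Kcnh3 reached it in exactly 2 libraries, with 0.372 CPM in M38 and 0.734 CPM in M40. The minimum was reached in both naive and MI libraries by 58 members, only in MI libraries by 9 and only in naive libraries by 1 (Kcns3), and in every library by 41. The study compared Vegfc fl/fl control mice with Vegfc fl/fl ; LysMCre mice, in which Cre driven from the Lyz2 locus acts in macrophages, monocytes and neutrophils, either naive or 9 days after permanent ligation of the left anterior descending coronary artery (MI). The groups were naive control (M44 and M45, n = 2), naive Vegfc-deficient (M149, M150 and M34, n = 3), MI control (M006, M38 and M40, n = 3) and MI Vegfc-deficient hearts (M35, M900 and M913, n = 3), and per-library values follow this order. Each library came from a piece of infarcted left ventricle, or from a matching piece of naive left ventricle, and the labels give no age. The genotype label gives the controls as floxed without Cre, whereas the extraction protocol names LysMCre mice, so the controls' Cre status was not settled here.

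Ventricular myocytes fire when the sodium channel pore opens, and they repolarize through several potassium currents that differ in speed. In the mouse the fast transient outward current, carried by Kv4 pores with the accessory protein KChIP2, and the delayed rectifiers carry most of the repolarization, while inward rectifiers hold the resting potential and ATP-sensitive channels couple it to metabolism. Pacemaker channels of the Hcn family open on hyperpolarization and are best known from the conduction system. Fibroblasts, macrophages, vascular cells and nerves use other members of the same families, among them calcium-activated and some inward rectifier and 2-pore channels.

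Summed counts were 10824989 to 14585642 in the 5 naive libraries and 14580756 to 26782728 in the 6 MI libraries, and expression is given as CPM (counts scaled to library size) scaled by edgeR's TMM method. Vegfc, the targeted gene, was at 25.1 and 34.7 CPM in naive control hearts, 27.5, 34.5 and 30.6 CPM in naive Vegfc-deficient hearts, 45.5, 21.9 and 25.8 CPM in MI control hearts and 29.4, 25.3 and 22.4 CPM in MI Vegfc-deficient hearts, and the groups overlapped. Lyz2, which carries the Cre insertion, was at 4560, 72.5 and 245 CPM in naive Vegfc-deficient M149, M150 and M34 against 2120 and 2280 CPM in naive control hearts, so that the library labelled naive Vegfc-deficient M149 went against its label. After MI it was at 5380, 4570 and 4540 CPM in control and 1390, 203 and 12.4 CPM in Vegfc-deficient hearts (M35, M900 and M913). Without M149, 29 members were lower and 16 higher after MI in control hearts and 27 lower and 14 higher in Vegfc-deficient hearts, where all libraries gave 29 and 15 and 29 and 13. Xist, transcribed from the inactive X chromosome, ranged from 0.624 to 11.8 CPM in naive and from 188 to 403 CPM in MI hearts. This difference cannot be told apart from MI. The labels give no sex. In every comparison of MI with naive hearts, any difference in sex therefore cannot be told apart from MI. The summed level of 12 cardiomyocyte markers was 113000 to 146000 CPM in naive hearts, and 12 of them were lower after MI in control and 11 in Vegfc-deficient hearts. After MI the sum in control hearts was 17200 CPM (M006), 23300 CPM (M38) and 3730 CPM (M40), and in Vegfc-deficient hearts 35600 CPM (M35), 7990 CPM (M900) and 17100 CPM (M913). The sum of 8 fibroblast markers was 4830 to 6730 CPM in naive and 30000 to 47600 CPM in MI hearts, and that of 8 macrophage markers was 1450 to 2210 CPM in naive and 1990 to 4840 CPM in MI hearts. Higher after MI were 6 fibroblast and 4 macrophage markers in control and 7 and 5 in Vegfc-deficient hearts, and the part of such cells in these results was not tested.

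In naive left ventricle the ATP-sensitive channel pore Kcnj8 was the most abundant channel transcript per length, at 87.6 ± 6.47 RPKM (SD, n = 2; TMM-scaled CPM per kb of merged exons) in control hearts. It was followed by the KChIP2 gene Kcnip2 at 33.8 ± 2.9 RPKM, the silent subunit Kcng2 at 27.0 ± 1.95 RPKM, the 2-pore channel Kcnk3 at 25.8 ± 3.34 RPKM and the second ATP-sensitive pore Kcnj11 at 25.3 ± 0.87 RPKM. Kcnj8, Kcnip2 and Kcng2 were separated by more than their spread, whereas Kcng2, Kcnk3 and Kcnj11 were not. The delayed rectifier Kcna5 was at 17.2 ± 1.45 RPKM. Above 1 RPKM were 32 members in naive control hearts, 32 in naive Vegfc-deficient hearts, 27 in MI control hearts and 29 in MI Vegfc-deficient hearts. After MI the order was different, and in whole tissue fewer cells of a type and less RNA per cell cannot be told apart. By its mean the accessory subunit Kcne4 stood first at 37.8 ± 9.61 RPKM (SD, n = 3) in MI control hearts. After it were Kcnj8 at 21.1 ± 12.4 RPKM and the inward rectifier Kcnj15 at 16.6 ± 3.96 RPKM. The spread of Kcnj8 overlapped with those of both Kcne4 and Kcnj15. Kcnip2 had moved to the tenth place, at 4.18 ± 3.13 RPKM. In MI Vegfc-deficient hearts Kcne4 again stood first, at 31.7 ± 3.21 RPKM.

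**Figure D1:**
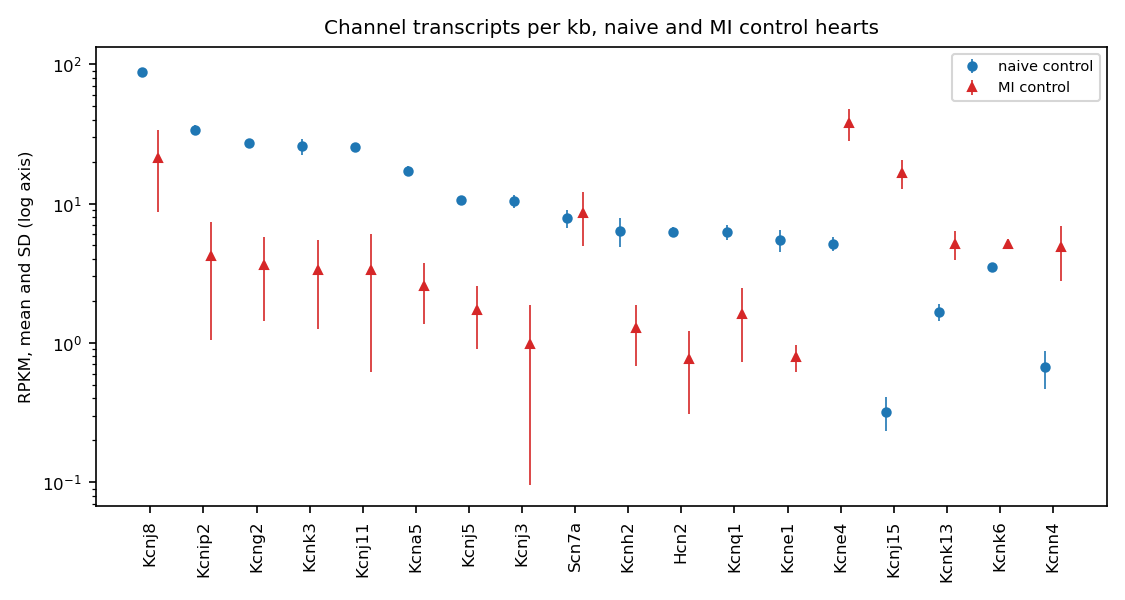
Mean RPKM with SD on a log axis for channel genes from the first 16 places in naive control hearts (circles, n = 2) and for those added from the first 8 places of MI control hearts (triangles, n = 3). Kcnj8 led in naive hearts at 87.6 RPKM and Kcne4 in MI control hearts at 37.8 RPKM, while Kcnip2 went from 33.8 to 4.18 RPKM.

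MI was accompanied by lower expression of most channel genes of the ventricular myocyte and by higher expression of a smaller set. Of 67 members tested (Kcnh3 did not pass edgeR's filter on low counts), 29 were lower and 15 higher after MI in control hearts with a threshold of 0.05 on the adjusted p. The p-values come from the quasi-likelihood test of edgeR, with adjustment by Benjamini and Hochberg across 14779 genes. Among all genes tested, 24.1% were lower and 26.3% higher, against 43.3% and 22.4% of the members. In Vegfc-deficient hearts 29 members were lower and 13 higher, where 27.7% of all genes were lower and 30.0% higher. The median log2 fold change of the members was -0.87 in control and -0.64 in Vegfc-deficient hearts, beside 0.13 and 0.10 over all genes. Called in the same direction in both genotypes were 27 lower and 12 higher members, 8 were called in 1 genotype, 20 in neither and 0 in opposite directions. The matching shares of all genes are not given here, so these counts describe the members only and do not set them apart. Each genotype's comparison was made against a naive group of its own. Both came from 1 fit of all 11 libraries, with shared scaling and a shared estimate of the spread, so their calls were not independent. Of the 12 higher members, 5 reached the count minimum only in MI libraries, so their direction follows partly from that rule. They were Kcnh1, Kcnj10, Kcnma1, Kcnq3 and Scn2b. When 1 library was left out in turn, the lower members numbered 25 to 30 in control and 23 to 30 in Vegfc-deficient hearts, and the higher members 10 (without naive control M44 or M45) to 17 and 11 to 16.

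**Figure D2:**
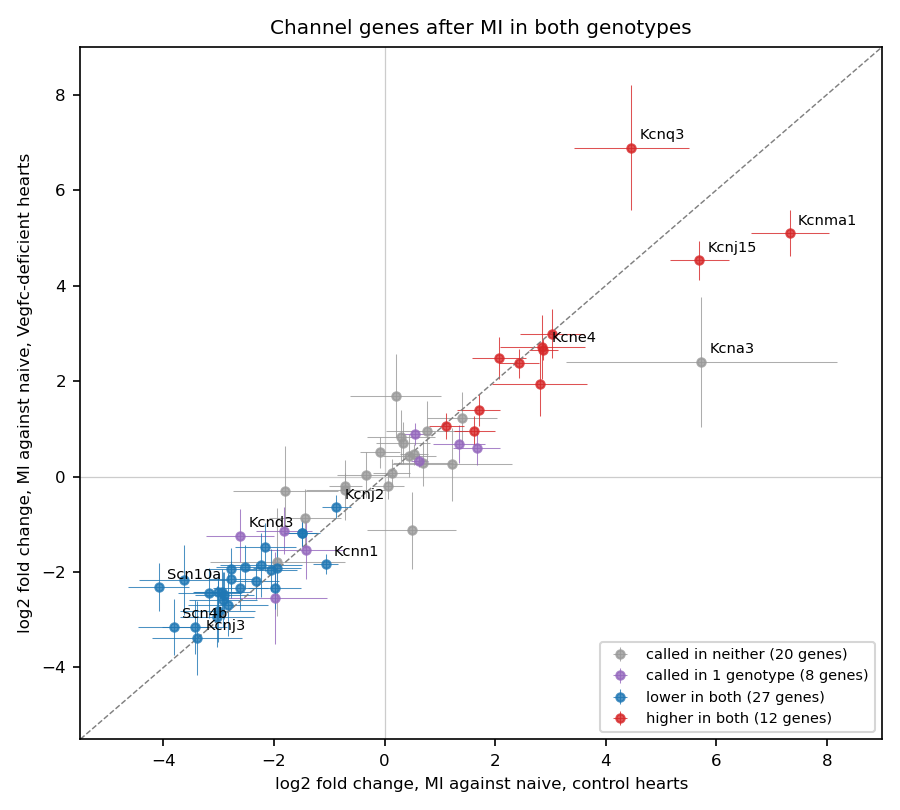
The log2 fold change of each of the 67 members after MI in control hearts (x axis) and in Vegfc-deficient hearts (y axis), with standard errors as bars and a dashed line of equality. The 27 genes lower in both genotypes lie in the lower left and the 12 higher in both in the upper right. The fitted values of Kcnma1, Kcnq3 and Kcna3 rest on naive groups with 0 to 7 counts and give no bound.

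Promoters are shown for 3 genes that stand for the patterns above, Kcnip2 (lower after MI), Kcnj2 (lower by the smallest fold among the ventricular genes that fell in both genotypes) and Kcne4 (higher). The windows run from 250 bases before to 50 after the annotated start, from RefSeq on GRCm38.p6, and are printed 5′ to 3′ on the gene's strand. Capitals mark matches on either strand to the PU.1-type motif GAGGAA. An AP-1-type motif, TGANTCA, was searched on both strands too. A GATA-type motif, AGATAA, and a MEF2-type motif of CTA and TAG with 4 bases between them were the others. No matches overlap here.
Kcnip2, chr19:45816014-45816313, minus strand: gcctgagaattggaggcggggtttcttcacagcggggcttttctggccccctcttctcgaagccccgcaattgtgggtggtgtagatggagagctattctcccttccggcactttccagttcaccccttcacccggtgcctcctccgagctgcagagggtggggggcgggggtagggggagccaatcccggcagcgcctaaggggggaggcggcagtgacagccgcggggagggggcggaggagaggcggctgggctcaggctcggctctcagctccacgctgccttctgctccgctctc
Kcnj2, chr11:111065914-111066213, plus strand: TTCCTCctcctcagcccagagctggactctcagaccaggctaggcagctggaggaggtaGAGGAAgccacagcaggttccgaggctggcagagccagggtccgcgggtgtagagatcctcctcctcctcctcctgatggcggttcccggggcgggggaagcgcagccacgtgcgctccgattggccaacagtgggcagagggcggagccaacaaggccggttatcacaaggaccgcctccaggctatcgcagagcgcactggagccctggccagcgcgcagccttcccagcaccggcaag
Kcne4, chr1:78816661-78816960, plus strand: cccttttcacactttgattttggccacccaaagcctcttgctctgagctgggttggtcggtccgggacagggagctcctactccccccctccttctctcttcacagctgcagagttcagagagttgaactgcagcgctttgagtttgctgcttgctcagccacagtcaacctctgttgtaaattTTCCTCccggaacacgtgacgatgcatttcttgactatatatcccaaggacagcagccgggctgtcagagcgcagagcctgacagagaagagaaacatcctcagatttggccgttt
The Kcnip2 window held none of these motifs, that of Kcnj2 held the PU.1-type motif once on each strand, and that of Kcne4 held it once on the minus strand. The PU.1-type motif was found in 28.3% of all 32851 promoters of the table and in 29.2% of the 65 promoters of the 47 members listed there. The AP-1-type motif was in 7.81% of all promoters and 4.62% of the members' promoters, and the GATA-type motif in 11.2% and 4.62%. The MEF2-type motif was in 3.69% of all promoters and in 0 of the members' 65. Among members lower in both genotypes, the PU.1-type motif was in 5 of 22 promoters, and among those higher in both, in 3 of 11. A match describes the letters only.

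The genes of the fast transient outward current were lower after MI in control hearts, and all but Kcnd3 passed in Vegfc-deficient hearts. Kcnip2, which encodes the KChIP2 subunit of Kv4 channels, was at 125 and 110 CPM in naive control hearts, 124, 130 and 87.6 CPM in naive Vegfc-deficient hearts, 16.6, 24.2 and 2.75 CPM in MI control hearts and 23.8, 7.38 and 17.3 CPM in MI Vegfc-deficient hearts. Every naive library lay above every MI library, and M40 was far below the other MI control libraries. Kcnip2 was 8.08-fold lower in control hearts (log2 fold change -3.02, standard error 0.68, edgeR adjusted p = 0.00473) and 7.07-fold lower in Vegfc-deficient hearts (-2.82, standard error 0.64, adjusted p = 0.00384). Kcnd2, the Kv4.2 pore, was at 13.4 and 15.6 CPM in naive control hearts, 12.5, 13.9 and 13.3 CPM in naive Vegfc-deficient hearts, 1.51, 3.11 and 0.624 CPM in MI control hearts and 3.29, 0.461 and 1.53 CPM in MI Vegfc-deficient hearts. It followed the same pattern, with M900 and M40 lowest. Kcnd2 was 8.2-fold lower in control hearts (log2 fold change -3.04, standard error 0.67, edgeR adjusted p = 0.00424) and 7.67-fold lower in Vegfc-deficient hearts (-2.94, standard error 0.64, adjusted p = 0.00301). Kcnd3, the Kv4.3 pore, was at 7.22 and 7.43 CPM in naive control hearts, 7.45, 7.63 and 5.53 CPM in naive Vegfc-deficient hearts, 0.915, 1.42 and 1.21 CPM in MI control hearts and 6.35, 1.26 and 1.24 CPM in MI Vegfc-deficient hearts. M35 stood among the naive libraries, and the other 5 MI libraries lay below all of them. Kcnd3 fell in control hearts (6.12-fold lower, log2 fold change -2.61, edgeR adjusted p = 0.00625). In Vegfc-deficient hearts it was 2.36-fold lower and did not pass (edgeR adjusted p = 0.0792), but without M35 the log2 fold change was -2.45 (adjusted p = 0.000212), and all libraries gave -1.28 (0.0455) with DESeq2 and -2.10 (0.000405) with limma-voom. The test of the difference between the genotypes' responses did not pass (log2 difference 1.38, edgeR adjusted p = 0.656). Kcnd3 overlaps the antisense gene Kcnd3os, and 20 members overlap an exon of another gene, 19 of them on the opposite strand. The strand setting of the counting is not given in the sources used here, so reads of such pairs may be mixed.

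Kcna4, the Kv1.4 pore of the slow transient outward current, was much less abundant, at 0.714 and 2.08 CPM in naive control hearts, 1.27, 2.06 and 1.22 CPM in naive Vegfc-deficient hearts, 0.323, 0.44 and 0.11 CPM in MI control hearts and 0.823, 0.252 and 0.207 CPM in MI Vegfc-deficient hearts. It was 4.72-fold lower in control hearts (edgeR adjusted p = 0.0281) and 3.62-fold lower in Vegfc-deficient hearts (adjusted p = 0.0371). These calls depended on single libraries. The control call was lost without M45 (log2 fold change -1.27, edgeR adjusted p = 0.331), M006 (-2.29, 0.0552) or M40 (-1.83, 0.0749), and the Vegfc-deficient call without any of M149, M150, M34, M006, M900 or M913, where the log2 fold change was -1.99 to -1.53. Leaving out M38 moved Kcnip2 in control hearts from -3.02 to -3.69 and Kcnd2 from -3.04 to -3.86, and leaving out M35 moved Kcnd2 in Vegfc-deficient hearts from -2.94 to -3.72 and Kcna4 from -1.85 to -2.67.

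**Figure D3:**
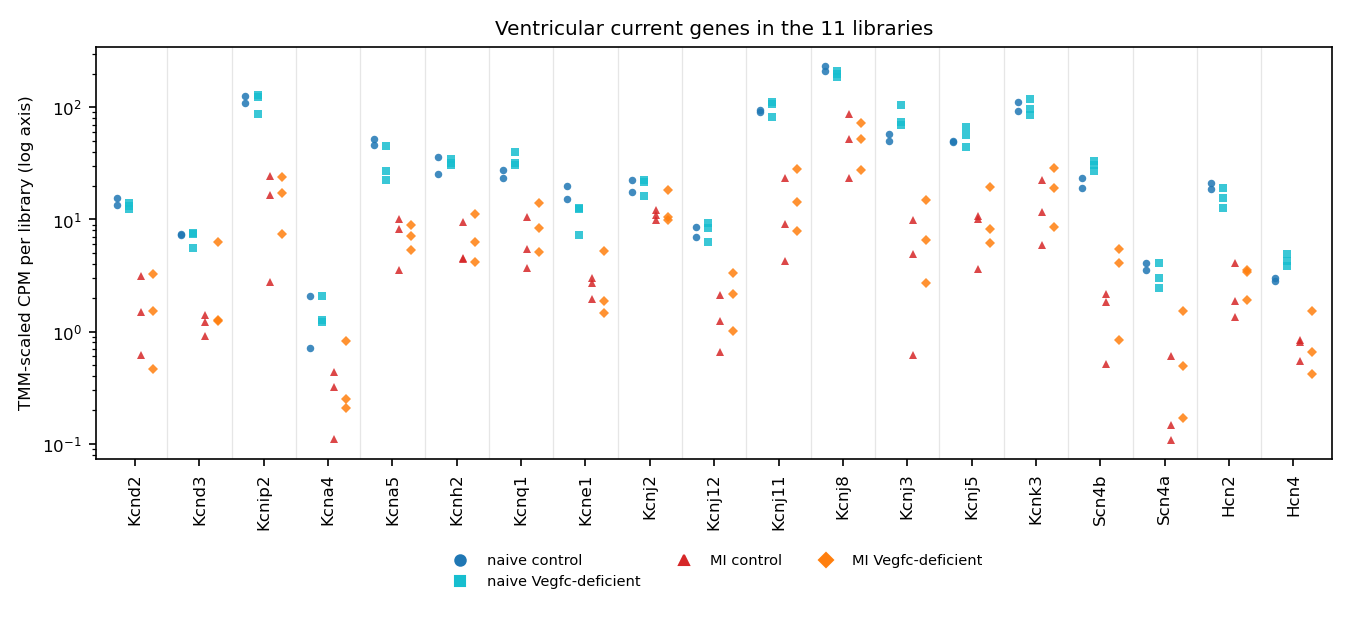
TMM-scaled CPM (log axis) of 19 ventricular current genes in every library, with circles and squares for naive control and naive Vegfc-deficient hearts and triangles and diamonds for MI control and MI Vegfc-deficient hearts. In control hearts all 3 MI libraries lay below both naive libraries for each gene shown.

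Of 5 ventricular delayed rectifiers tested, 3 fell in each genotype. Kcna5, the Kv1.5 pore, was at 52.2 and 46.3 CPM in naive control hearts, 22.6, 27 and 45.5 CPM in naive Vegfc-deficient hearts, 10.1, 8.15 and 3.52 CPM in MI control hearts and 8.99, 5.33 and 7.16 CPM in MI Vegfc-deficient hearts. The groups did not overlap, and the naive Vegfc-deficient libraries M149 and M150 were lower than the other naive libraries. Kcna5 was 6.81-fold lower in control hearts (log2 fold change -2.77, standard error 0.41, edgeR adjusted p = 0.000616) and 4.45-fold lower in Vegfc-deficient hearts (-2.15, standard error 0.38, adjusted p = 0.000962). Kcna7, the Kv1.7 pore, was at 1.67 to 2.81 CPM in naive and 0.161 to 0.705 CPM in MI hearts. It was 8.99-fold lower in control hearts (edgeR adjusted p = 0.00149) and 5.4-fold lower in Vegfc-deficient hearts (adjusted p = 0.00293). Its log2 fold change moved from -3.17 to -3.84 without M38 and from -2.43 to -3.05 without M35. Kcna2 and Kcna6 were not called in either genotype, with log2 fold changes of -1.43 and -0.87 for Kcna2 and -0.34 and 0.03 for Kcna6, and the sign of Kcna6 in Vegfc-deficient hearts turned to -0.03 with DESeq2 size factors.

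Among the genes of the rapid and slow delayed rectifiers described from other mammals, the pores Kcnh2 and Kcnq1 fell, and of the accessory subunits Kcne1 fell and Kcne4 rose. Kcnh2, the ERG1 pore, was at 36 and 25.7 CPM in naive control hearts, 34.7, 32 and 30.8 CPM in naive Vegfc-deficient hearts, 4.47, 9.43 and 4.55 CPM in MI control hearts and 11.1, 4.15 and 6.25 CPM in MI Vegfc-deficient hearts. Every MI library lay below every naive library, with M35 and M38 highest after MI. Kcnh2 was 4.99-fold lower in control hearts (log2 fold change -2.32, standard error 0.40, edgeR adjusted p = 0.00131) and 4.56-fold lower in Vegfc-deficient hearts (-2.19, standard error 0.38, adjusted p = 0.0008). Kcnq1, the KvLQT1 pore, was at 27.7 and 23.2 CPM in naive control hearts, 32.1, 39.8 and 30.5 CPM in naive Vegfc-deficient hearts, 5.44, 10.5 and 3.71 CPM in MI control hearts and 13.9, 5.16 and 8.37 CPM in MI Vegfc-deficient hearts. The groups were again separate. Kcnq1 was 3.86-fold lower in control hearts (log2 fold change -1.95, standard error 0.44, edgeR adjusted p = 0.00463) and 3.75-fold lower in Vegfc-deficient hearts (-1.91, standard error 0.41, adjusted p = 0.00261), and in control hearts the log2 fold change was -2.55 without M38. Kcnq1 overlaps the antisense transcript Kcnq1ot1. Kcne1, the accessory subunit that slows KvLQT1, was at 19.8 and 15.3 CPM in naive control hearts, 12.6, 12.3 and 7.32 CPM in naive Vegfc-deficient hearts, 1.94, 2.98 and 2.72 CPM in MI control hearts and 5.23, 1.47 and 1.86 CPM in MI Vegfc-deficient hearts. M35 and the naive library M34 were the nearest to each other across the gap. Kcne1 was 6.85-fold lower in control hearts (log2 fold change -2.78, standard error 0.48, edgeR adjusted p = 0.00122) and 3.82-fold lower in Vegfc-deficient hearts (-1.93, standard error 0.45, adjusted p = 0.00409), with a log2 fold change of -2.68 without M35.

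Kcne4, an accessory subunit that inhibits KvLQT1 and Kv1 channels, rose. It was at 14.8 and 12.5 CPM in naive control hearts, 10.4, 16.1 and 13.8 CPM in naive Vegfc-deficient hearts, 96.6, 76.9 and 127 CPM in MI control hearts and 83.6, 76.1 and 93.2 CPM in MI Vegfc-deficient hearts. All 6 MI libraries lay far above all 5 naive libraries, and neither genotype stood apart. Kcne4 was 7.34-fold higher in control hearts (log2 fold change 2.88, standard error 0.26, edgeR adjusted p = 0.000131) and 6.3-fold higher in Vegfc-deficient hearts (2.65, standard error 0.22, adjusted p = 3.34e-05). Kcne3 was not called in either genotype, at 0.06 and -0.20 on the log2 scale (-0.003 in control hearts with DESeq2 size factors). The EAG pore Kcnh1 and the M-current pore Kcnq3 rose from levels near the limit of detection. Both reached the count minimum only in MI libraries, so their direction follows partly from that rule. Kcnh1 was at 0 and 0.362 CPM in naive control hearts, 0.588, 0.121 and 0.244 CPM in naive Vegfc-deficient hearts, 1.35, 0.879 and 1.69 CPM in MI control hearts and 1.12, 1.47 and 1.2 CPM in MI Vegfc-deficient hearts, and was 6.99-fold higher in control and 3.85-fold higher in Vegfc-deficient hearts (edgeR adjusted p = 0.0208 and 0.0324). Kcnq3 had 1 count in both naive control libraries together against 82 in MI control hearts, a ratio of the levels of 24.2 (95% counting interval 4.22 to 967). In naive Vegfc-deficient hearts it had 0 counts against 56 after MI, which is at least 8.83-fold higher (against a floor of 3 counts over the group). Kcnh7 was lower in Vegfc-deficient hearts (2.9-fold, edgeR adjusted p = 0.0494) and not called in control hearts (log2 fold change -1.42, adjusted p = 0.106).

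Among the inward rectifiers, Kcnj2 and Kcnj12 fell and Kcnj10 and Kcnj15 rose. Kcnj2, the Kir2.1 pore of the resting conductance, was at 17.7 and 22.5 CPM in naive control hearts, 21.4, 22.3 and 16.3 CPM in naive Vegfc-deficient hearts, 12.2, 11 and 9.91 CPM in MI control hearts and 18.2, 9.81 and 10.6 CPM in MI Vegfc-deficient hearts. MI control libraries lay below the naive libraries, and M35 overlapped with naive M34. Kcnj2 was 1.83-fold lower in control hearts (log2 fold change -0.87, standard error 0.27, edgeR adjusted p = 0.0199) and 1.55-fold lower in Vegfc-deficient hearts (-0.64, standard error 0.24, adjusted p = 0.0434). Both calls depended on single libraries. In control hearts the log2 fold change was -0.69 without M45 (edgeR adjusted p = 0.15) and -0.80 without M40 (0.0569). In Vegfc-deficient hearts the call was lost without M44, M45, M149, M150, M006, M38, M900 or M913, where the log2 fold change was -0.66 to -0.48. Kcnj12, the Kir2.2 pore, was at 8.56 and 6.98 CPM in naive control hearts, 9.31, 6.29 and 8.38 CPM in naive Vegfc-deficient hearts, 1.24, 2.1 and 0.66 CPM in MI control hearts and 3.35, 1.01 and 2.15 CPM in MI Vegfc-deficient hearts. All MI libraries lay below all naive libraries. Kcnj12 was 5.78-fold lower in control hearts (log2 fold change -2.53, standard error 0.52, edgeR adjusted p = 0.00283) and 3.72-fold lower in Vegfc-deficient hearts (-1.90, standard error 0.47, adjusted p = 0.00618).

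Kcnj15, the Kir4.2 pore, showed one of the largest rises of the family. It was at 2.41 and 1.63 CPM in naive control hearts, 1.67, 3.99 and 6.51 CPM in naive Vegfc-deficient hearts, 76.4, 114 and 124 CPM in MI control hearts and 83.5, 122 and 79.4 CPM in MI Vegfc-deficient hearts. The lowest MI library was far above the highest naive library, which was M34. Kcnj15 was 51.7-fold higher in control hearts (log2 fold change 5.69, standard error 0.54, edgeR adjusted p = 0.000138) and 23.1-fold higher in Vegfc-deficient hearts (4.53, standard error 0.41, adjusted p = 4.26e-05). It overlaps the gene model Gm49643 on the opposite strand. Kcnj10, the Kir4.1 pore known from glia and kidney, was at 0.268 and 0.362 CPM in naive control hearts, 0.0981, 0.242 and 0.488 CPM in naive Vegfc-deficient hearts, 3.39, 2.2 and 2.31 CPM in MI control hearts and 2.41, 3.02 and 1.57 CPM in MI Vegfc-deficient hearts. It was low in all naive libraries and separate in all MI libraries, and it reached the count minimum only in MI libraries. Kcnj10 was 8.17-fold higher in control hearts (edgeR adjusted p = 0.00221) and 7.97-fold higher in Vegfc-deficient hearts (adjusted p = 0.000772), with a log2 fold change of 3.77 in place of 3.0 without M34. Kcnj14 was not called (log2 fold changes -1.79 and -0.30).

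Both ATP-sensitive pores and both G protein-gated pores fell. Kcnj11, the Kir6.2 pore of the myocyte channel, was at 90.7 and 95.2 CPM in naive control hearts, 81.8, 106 and 111 CPM in naive Vegfc-deficient hearts, 9.1, 23.2 and 4.22 CPM in MI control hearts and 28.1, 7.84 and 14.3 CPM in MI Vegfc-deficient hearts. The lowest naive library was at 81.8 CPM and the highest MI library at 28.1 CPM. Kcnj11 was 7.6-fold lower in control hearts (log2 fold change -2.92, standard error 0.62, edgeR adjusted p = 0.00343) and 5.97-fold lower in Vegfc-deficient hearts (-2.58, standard error 0.58, adjusted p = 0.00356). Kcnj8, the Kir6.1 pore, which vascular mural cells also express, was at 211 and 235 CPM in naive control hearts, 187, 198 and 210 CPM in naive Vegfc-deficient hearts, 86.5, 51.9 and 23.3 CPM in MI control hearts and 73, 27.6 and 52.2 CPM in MI Vegfc-deficient hearts. The groups did not overlap, and M006 kept the highest MI level. Kcnj8 was 4.15-fold lower in control hearts (log2 fold change -2.05, standard error 0.47, edgeR adjusted p = 0.00509) and 3.9-fold lower in Vegfc-deficient hearts (-1.96, standard error 0.44, adjusted p = 0.00349). The summed level of 8 smooth muscle and pericyte markers was 2670 to 4360 CPM in naive and 2720 to 3640 CPM in MI hearts, but its members moved in both directions. The pericyte marker Rgs5 fell from 1170 to 1510 CPM in naive to 412 to 929 CPM in MI hearts (edgeR adjusted p = 0.0193 in control and 0.00476 in Vegfc-deficient hearts), and 5 of the 8, Acta2, Tagln and Cnn1 among them, rose in each genotype. The pericyte markers Pdgfrb and Cspg4 did not follow Rgs5. Pdgfrb was at 83.4 to 115 CPM in naive and 153 to 276 CPM in MI hearts. Cspg4 was at 20.6 to 23 CPM in naive and 19.9 to 42.6 CPM in MI hearts. The part of these markers in the result for Kcnj8 was not tested. Leaving out M38 moved Kcnj11 in control hearts from -2.92 to -3.88 on the log2 scale, and leaving out M35 moved it in Vegfc-deficient hearts from -2.58 to -3.16.

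Kcnj3, the GIRK1 pore through which vagal signals slow the heart, was at 49.9 and 58.2 CPM in naive control hearts, 70.2, 104 and 74 CPM in naive Vegfc-deficient hearts, 4.9, 9.87 and 0.624 CPM in MI control hearts and 14.8, 2.73 and 6.5 CPM in MI Vegfc-deficient hearts. M40 was lowest by a wide margin, and naive M150 was highest. Kcnj3 was 10.5-fold lower in control hearts (log2 fold change -3.39, standard error 0.82, edgeR adjusted p = 0.00657) and 10.5-fold lower in Vegfc-deficient hearts (-3.39, standard error 0.77, adjusted p = 0.00392). Kcnj5, its partner GIRK4, was at 48.8 and 50.2 CPM in naive control hearts, 44.4, 66.7 and 56.9 CPM in naive Vegfc-deficient hearts, 10.1, 10.7 and 3.63 CPM in MI control hearts and 19.4, 6.12 and 8.2 CPM in MI Vegfc-deficient hearts. It separated naive from MI hearts as well. Kcnj5 was 6.11-fold lower in control hearts (log2 fold change -2.61, standard error 0.50, edgeR adjusted p = 0.00203) and 5.02-fold lower in Vegfc-deficient hearts (-2.33, standard error 0.46, adjusted p = 0.00182). Without M38 the log2 fold change of Kcnj3 in control hearts was -4.42, and without M35 that in Vegfc-deficient hearts was -4.16 for Kcnj3 and -2.96 for Kcnj5. These pores are best known from the atrium and sinus node, and of 6 atrial cardiomyocyte markers Sln and Bmp10 were at 0 in 1 or more libraries, while the summed level of the list was 396 to 1250 CPM in naive and 1410 to 5820 CPM in MI hearts.

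Of 6 two-pore channels tested, 2 fell and 1 rose in both genotypes. Kcnk3, the acid-sensitive TASK-1 channel, was at 112 and 93.1 CPM in naive control hearts, 85.8, 118 and 97.2 CPM in naive Vegfc-deficient hearts, 11.7, 22.4 and 5.94 CPM in MI control hearts and 28.7, 8.51 and 19.2 CPM in MI Vegfc-deficient hearts. Naive and MI libraries were far apart. Kcnk3 was 7.66-fold lower in control hearts (log2 fold change -2.94, standard error 0.53, edgeR adjusted p = 0.00151) and 5.35-fold lower in Vegfc-deficient hearts (-2.42, standard error 0.49, adjusted p = 0.002), and in control hearts the log2 fold change was -3.62 without M38. Kcnk2, the stretch-activated TREK-1 channel, was at 15.8 and 13 CPM in naive control hearts, 12.4, 14.3 and 14.4 CPM in naive Vegfc-deficient hearts, 6.78, 4.73 and 3.85 CPM in MI control hearts and 8.05, 4.36 and 5.67 CPM in MI Vegfc-deficient hearts. The groups did not overlap, and M35 was the nearest MI library to the naive range. Kcnk2 was 2.82-fold lower in control hearts (log2 fold change -1.5, standard error 0.29, edgeR adjusted p = 0.00216) and 2.28-fold lower in Vegfc-deficient hearts (-1.19, standard error 0.27, adjusted p = 0.00349). Kcnk13, the THIK-1 channel known from microglia and macrophages, was at 5.71 and 4.71 CPM in naive control hearts, 9.51, 7.02 and 5.7 CPM in naive Vegfc-deficient hearts, 11.8, 19 and 17.4 CPM in MI control hearts and 8.7, 15.7 and 18.8 CPM in MI Vegfc-deficient hearts. The MI control libraries lay above all naive libraries, whereas M35 fell within the naive range. Kcnk13 was 3.08-fold higher in control hearts (log2 fold change 1.62, standard error 0.36, edgeR adjusted p = 0.00464) and 1.95-fold higher in Vegfc-deficient hearts (0.96, standard error 0.31, adjusted p = 0.0215). Kcnk6 was higher in Vegfc-deficient hearts (1.86-fold, edgeR adjusted p = 0.00847) and not called in control hearts (log2 fold change 0.56, adjusted p = 0.101). Kcnk1 and Kcnk5 were not called in either genotype.

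Calcium-activated and sodium-activated potassium channels moved in both directions. Kcnma1, the large-conductance BK pore of smooth muscle and other cells, was at 0.0892 and 0 CPM in naive control hearts, 0.0981, 0.242 and 0.326 CPM in naive Vegfc-deficient hearts, 5.98, 11 and 8.11 CPM in MI control hearts and 10.1, 7.84 and 6.13 CPM in MI Vegfc-deficient hearts. The naive control libraries held 1 count in all against 656 in MI control hearts, a ratio of the levels of 194 (95% counting interval 34.6 to 7660, which covers counting error only). In Vegfc-deficient hearts Kcnma1 was 34.4-fold higher after MI (log2 fold change 5.10, standard error 0.48, edgeR adjusted p = 4.59e-05). Kcnma1 reached the count minimum only in MI libraries, so its direction follows partly from that rule. In control hearts the edgeR adjusted p was 0.000145, and the fitted log2 fold change of 7.33 was 10.25 without M44 and 6.45 without M45. Kcnmb1, the BK beta subunit typical of smooth muscle, was not called, at 4.19 to 4.72 CPM in naive and 4.63 to 7.54 CPM in MI hearts.

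Kcnn4, the intermediate-conductance channel of leukocytes and fibroblasts, was at 2.68 and 4.17 CPM in naive control hearts, 5.29, 0.968 and 2.28 CPM in naive Vegfc-deficient hearts, 12.8, 28.4 and 33.2 CPM in MI control hearts and 5.94, 27 and 23.6 CPM in MI Vegfc-deficient hearts. M35 lay only just above the naive range while the other MI libraries were well above it. Kcnn4 was 7.25-fold higher in control hearts (log2 fold change 2.86, standard error 0.77, edgeR adjusted p = 0.0113) and 6.54-fold higher in Vegfc-deficient hearts (2.71, standard error 0.67, adjusted p = 0.00583). Kcnt2, the sodium-activated Slick channel, was at 5.98 to 8.46 CPM in naive and 11.8 to 20.3 CPM in MI hearts. It was 2.17-fold higher in control and 2.09-fold higher in Vegfc-deficient hearts (edgeR adjusted p = 0.0134 and 0.00748). Of the small-conductance channels, Kcnn1 and Kcnn2 fell and Kcnn3 was not called. Kcnn1, the SK1 pore, was at 15.4 and 14.7 CPM in naive control hearts, 19.6, 25.2 and 23.8 CPM in naive Vegfc-deficient hearts, 5.44, 9.23 and 6.86 CPM in MI control hearts and 6.82, 5.37 and 7.04 CPM in MI Vegfc-deficient hearts. Both naive control libraries were below all 3 naive Vegfc-deficient libraries, and all MI libraries were below those of both naive groups. Kcnn1 was 2.09-fold lower in control hearts (log2 fold change -1.06, standard error 0.23, edgeR adjusted p = 0.00371) and 3.56-fold lower in Vegfc-deficient hearts (-1.83, standard error 0.21, adjusted p = 9.95e-05). Kcnn2, the SK2 pore, was 7.1-fold lower in control and 6.42-fold lower in Vegfc-deficient hearts (edgeR adjusted p = 0.00892 and 0.00583), from 3.92 to 14.3 CPM in naive to 0.367 to 3.76 CPM in MI hearts. Kcnt1 was not called.

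Electrically silent subunits form channels only together with other Kv pores, and of these Kcng2 and Kcnv2 fell in both genotypes, while Kcng4 and Kcns1 were called in neither. Kcng2 was at 84.9 and 76.7 CPM in naive control hearts, 68.1, 95.5 and 81.2 CPM in naive Vegfc-deficient hearts, 10.1, 17.6 and 4.7 CPM in MI control hearts and 23.9, 6.67 and 13.3 CPM in MI Vegfc-deficient hearts. All 6 MI libraries were far below the naive range, with M35 highest and M40 lowest. Kcng2 was 7.47-fold lower in control hearts (log2 fold change -2.90, standard error 0.53, edgeR adjusted p = 0.00167) and 5.61-fold lower in Vegfc-deficient hearts (-2.49, standard error 0.49, adjusted p = 0.00183). Kcnv2 was at 13.3 and 11.6 CPM in naive control hearts, 8.53, 9.32 and 10.3 CPM in naive Vegfc-deficient hearts, 1.51, 1.62 and 0.33 CPM in MI control hearts and 1.94, 0.755 and 0.538 CPM in MI Vegfc-deficient hearts. The lowest naive library was at 8.53 CPM and the highest MI library at 1.94 CPM. Kcnv2 was 10.8-fold lower in control hearts (log2 fold change -3.43, standard error 0.59, edgeR adjusted p = 0.00124) and 8.89-fold lower in Vegfc-deficient hearts (-3.15, standard error 0.57, adjusted p = 0.00103). Without M38 the log2 fold change of Kcng2 in control hearts was -3.53, and without M35 that of Kcnv2 in Vegfc-deficient hearts was -3.84. Kcnd1, the Kv4.1 pore, rose, in contrast to its relatives Kcnd2 and Kcnd3. It was at 0.892 and 1.18 CPM in naive control hearts, 1.47, 1.09 and 1.22 CPM in naive Vegfc-deficient hearts, 5.06, 4.73 and 7.04 CPM in MI control hearts and 7.23, 7.84 and 4.68 CPM in MI Vegfc-deficient hearts. The groups were far apart. Kcnd1 was 5.4-fold higher in control hearts (log2 fold change 2.43, standard error 0.36, edgeR adjusted p = 0.00061) and 5.18-fold higher in Vegfc-deficient hearts (2.37, standard error 0.30, adjusted p = 0.000162). Kcnd1 lies on chromosome X, and Xist moved with MI in the same libraries. The part of Xist-linked differences in this result was not tested.

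Kcns3 was lower in control hearts (3.54-fold, edgeR adjusted p = 0.0126) and not called in Vegfc-deficient hearts (adjusted p = 0.0719). It reached the count minimum only in naive libraries, so its direction follows partly from that rule. Each MI library held 5 to 9 counts of it. Kcna3, the Kv1.3 pore of T cells, had 0 counts in naive control hearts against 30 in MI control hearts. The MI control counts were 0 in M006, 14 in M38 and 16 in M40. Over the group Kcna3 was at least 2.95-fold higher, and it was not called in either genotype. It reached the count minimum only in MI libraries, so its direction follows partly from that rule. The summed level of 7 T cell markers was 5.71 to 17.3 CPM in naive and 17.9 to 184 CPM in MI hearts, where the 5 libraries other than M38 were at 17.9 to 33.2 CPM. Of the Kv beta subunits and the other KChIP genes, Kcnab1 alone was called. It was at 1.61 and 2.08 CPM in naive control hearts, 1.96, 1.21 and 2.6 CPM in naive Vegfc-deficient hearts, 5.6, 3.99 and 8.04 CPM in MI control hearts and 2.29, 3.02 and 3.56 CPM in MI Vegfc-deficient hearts. The MI control libraries were highest, and M35 fell within the naive range. Kcnab1 was 3.18-fold higher in control hearts (edgeR adjusted p = 0.00818) and 1.52-fold higher without passing in Vegfc-deficient hearts (adjusted p = 0.177). Among the 20 members called in neither genotype were Kcna2, Kcna3, Kcna6, Kcnab2, Kcnab3, Kcnc2, Kcne3, Kcng4, Kcnip1, Kcnip3, Kcnj14, Kcnk1, Kcnk5, Kcnmb1, Kcnn3, Kcns1, Kcnt1, Scn3b and Scn7a.

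The sodium channel pores Scn10a and Scn4a fell. Scn10a, the Nav1.8 pore best known from sensory neurons, was at 5.44 and 2.81 CPM in naive control hearts, 2.65, 3.15 and 1.55 CPM in naive Vegfc-deficient hearts, 0.215, 0.338 and 0.147 CPM in MI control hearts and 0.764, 0.419 and 0.29 CPM in MI Vegfc-deficient hearts. The lowest naive library was at 1.55 CPM and the highest MI library at 0.764 CPM. Scn10a was 17-fold lower in control hearts (log2 fold change -4.09, standard error 0.56, edgeR adjusted p = 0.00043) and 5.0-fold lower in Vegfc-deficient hearts (-2.32, standard error 0.50, adjusted p = 0.00289).

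Scn4a, the skeletal muscle pore, was at 4.1 and 3.53 CPM in naive control hearts, 2.45, 4.12 and 3.01 CPM in naive Vegfc-deficient hearts, 0.108, 0.609 and 0.147 CPM in MI control hearts and 1.53, 0.168 and 0.497 CPM in MI Vegfc-deficient hearts. It was 12.4-fold lower in control hearts (log2 fold change -3.63, standard error 0.81, edgeR adjusted p = 0.00462) and 4.47-fold lower in Vegfc-deficient hearts (-2.16, standard error 0.73, adjusted p = 0.0269). The Vegfc-deficient call was lost without M150 (log2 fold change -1.94, edgeR adjusted p = 0.078), M34 (-2.20, 0.0516), M900 (-1.67, 0.0767) or M913 (-1.95, 0.0936), and the values were -4.86 without M38 in control and -3.23 without M35 in Vegfc-deficient hearts. The neuronal pore Scn2a rose. It was at 1.87 and 1.81 CPM in naive control hearts, 1.37, 1.94 and 2.12 CPM in naive Vegfc-deficient hearts, 7.32, 3.48 and 7.26 CPM in MI control hearts and 5.47, 5.07 and 3.85 CPM in MI Vegfc-deficient hearts. The groups did not overlap. Scn2a was 3.25-fold higher in control hearts (log2 fold change 1.70, standard error 0.39, edgeR adjusted p = 0.00513) and 2.64-fold higher in Vegfc-deficient hearts (1.40, standard error 0.34, adjusted p = 0.00541). Scn3a was higher in control hearts (2.55-fold, edgeR adjusted p = 0.0338) and not called in Vegfc-deficient hearts (adjusted p = 0.164). Scn7a, the sodium-sensing Nax channel, was at 51.3 to 72.3 CPM in naive and 39.8 to 96.3 CPM in MI hearts and was not called (log2 fold changes 0.13 and 0.07). The summed level of 10 nerve and Schwann cell markers was 209 to 271 CPM in naive and 258 to 435 CPM in MI hearts, with Th at 0 in 1 or more libraries. Its part in these results was not tested.

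The sodium channel beta subunits differed from each other. Scn4b, which modulates sodium channel gating, was at 23.2 and 18.9 CPM in naive control hearts, 27.1, 30.9 and 33.3 CPM in naive Vegfc-deficient hearts, 1.83, 2.16 and 0.514 CPM in MI control hearts and 4.05, 0.839 and 5.43 CPM in MI Vegfc-deficient hearts. All MI libraries were far below all naive libraries, with M913 and M35 highest among them. Scn4b was 14-fold lower in control hearts (log2 fold change -3.81, standard error 0.65, edgeR adjusted p = 0.00116) and 8.86-fold lower in Vegfc-deficient hearts (-3.15, standard error 0.58, adjusted p = 0.00123). Scn2b rose by 4.2-fold and 5.63-fold (edgeR adjusted p = 0.00551 and 0.000924) from 0.242 to 0.815 CPM in naive to 1.66 to 3.71 CPM in MI hearts. It reached the count minimum only in MI libraries, so its direction follows partly from that rule. Scn3b was not called.

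The pacemaker channel genes Hcn2 and Hcn4 fell. Hcn2, the main ventricular isoform, was at 21.2 and 18.8 CPM in naive control hearts, 15.4, 19.1 and 12.6 CPM in naive Vegfc-deficient hearts, 1.88, 4.09 and 1.36 CPM in MI control hearts and 3.53, 1.93 and 3.4 CPM in MI Vegfc-deficient hearts. No MI library reached the naive range. Hcn2 was 8.11-fold lower in control hearts (log2 fold change -3.02, standard error 0.42, edgeR adjusted p = 0.000473) and 5.32-fold lower in Vegfc-deficient hearts (-2.41, standard error 0.39, adjusted p = 0.000568), with -3.70 on the log2 scale without M38 in control hearts. Hcn4, the sinus node isoform, was at 2.85 and 2.99 CPM in naive control hearts, 3.82, 4.24 and 4.88 CPM in naive Vegfc-deficient hearts, 0.807, 0.845 and 0.55 CPM in MI control hearts and 1.53, 0.419 and 0.663 CPM in MI Vegfc-deficient hearts. The groups were separate at low levels. Hcn4 was 3.96-fold lower in control hearts (log2 fold change -1.99, standard error 0.48, edgeR adjusted p = 0.00644) and 5.04-fold lower in Vegfc-deficient hearts (-2.33, standard error 0.44, adjusted p = 0.00137), with -2.98 without M35 in Vegfc-deficient hearts.

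**Figure D4:**
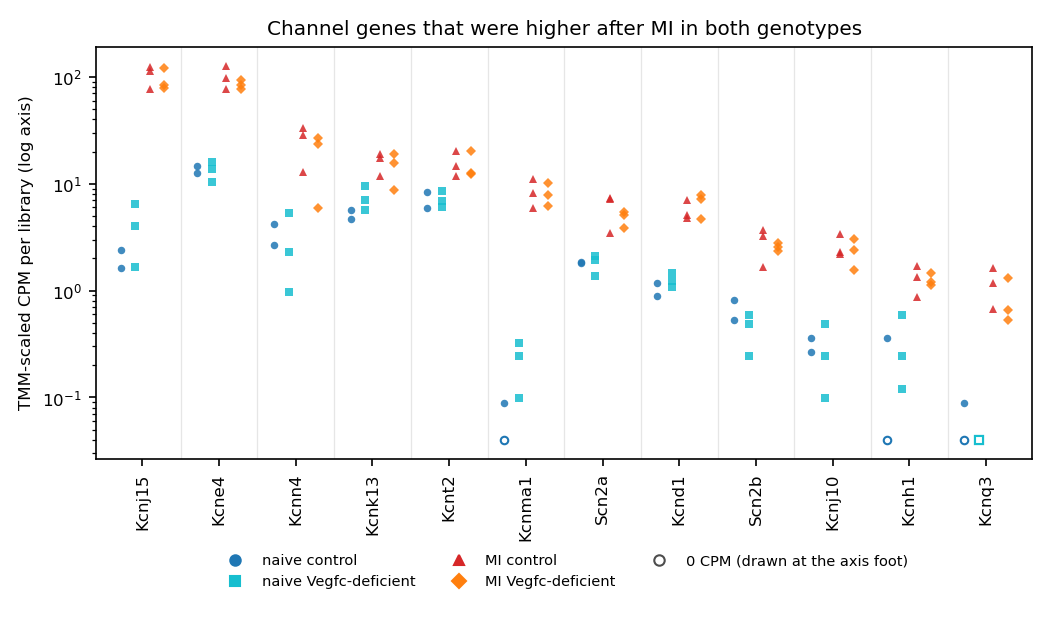
TMM-scaled CPM (log axis) in every library for the 12 channel genes called higher after MI in both genotypes, with open symbols for libraries at 0. In control hearts every MI library lay above both naive libraries for all 12 genes, and Kcnj15 and Kcne4 had the highest CPM after MI.

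Taking the 22 genes of the ventricular currents as 1 list, 21 fell and 1 rose in control hearts, with a median log2 fold change of -2.61, where 24.1% of all genes were lower and 26.3% higher. In Vegfc-deficient hearts 20 fell and 2, of which Kcnd3 was 1, were not called, with a median of -2.16, where 27.7% of all genes were lower and 30.0% higher. The list was written with earlier results of these data known. Most of the genes that fell shared their lowest and highest MI library. Of the 27 members lower in both genotypes, 19 had their lowest MI value in M40, 6 in M900 and 2 in M006, and 21 had their highest in M35. M40 and M900 also had the lowest sums of cardiomyocyte markers after MI and M35 the highest.

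To relate the channels to the myocyte RNA in the same library, the counts were scaled to the sum of the 12 cardiomyocyte markers in place of TMM. On this scale, 0 members were lower and 37 of 67 (55.2%) were higher after MI in control hearts, where 90.4% of all genes were higher and 0.0609% lower. In Vegfc-deficient hearts 0 members were lower and 35 (52.2%) were higher, against 85.6% and 0.101% of all genes. The median log2 fold change was 3.04 for the members and 4.11 for all genes in control hearts, and 2.34 and 3.29 in Vegfc-deficient hearts. By edgeR, unadjusted p-values were under 0.05 for 38 and 36 members, of which 0 were lower. The split of calls thus differed between the scalings.

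Among the 22 ventricular genes, 3 were called on the cardiomyocyte marker scale in control hearts and 2 in Vegfc-deficient hearts, all of them higher and Kcnj2 in both. Of all genes, 90.4% were called higher on this scale in control hearts and 85.6% in Vegfc-deficient hearts. Kcnj2 had log2 fold changes of 3.04 and 2.34 (edgeR adjusted p = 0.00718 and 0.013), both below the median of all genes on this scale. Kcnip2 was at 0.01 and -0.03, with standard errors of 0.95 and 0.85. Values below 0 in both genotypes were found for Kcnj3 (-0.50 and -0.74), Scn4b (-0.56 and -0.39) and the silent subunit Kcnv2 (-0.25 and -0.29), none of which passed. Of the 27 members lower in both genotypes by TMM, 22 had a positive log2 fold change on this scale in each genotype, with medians of 0.71 and 0.56.

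**Figure D5:**
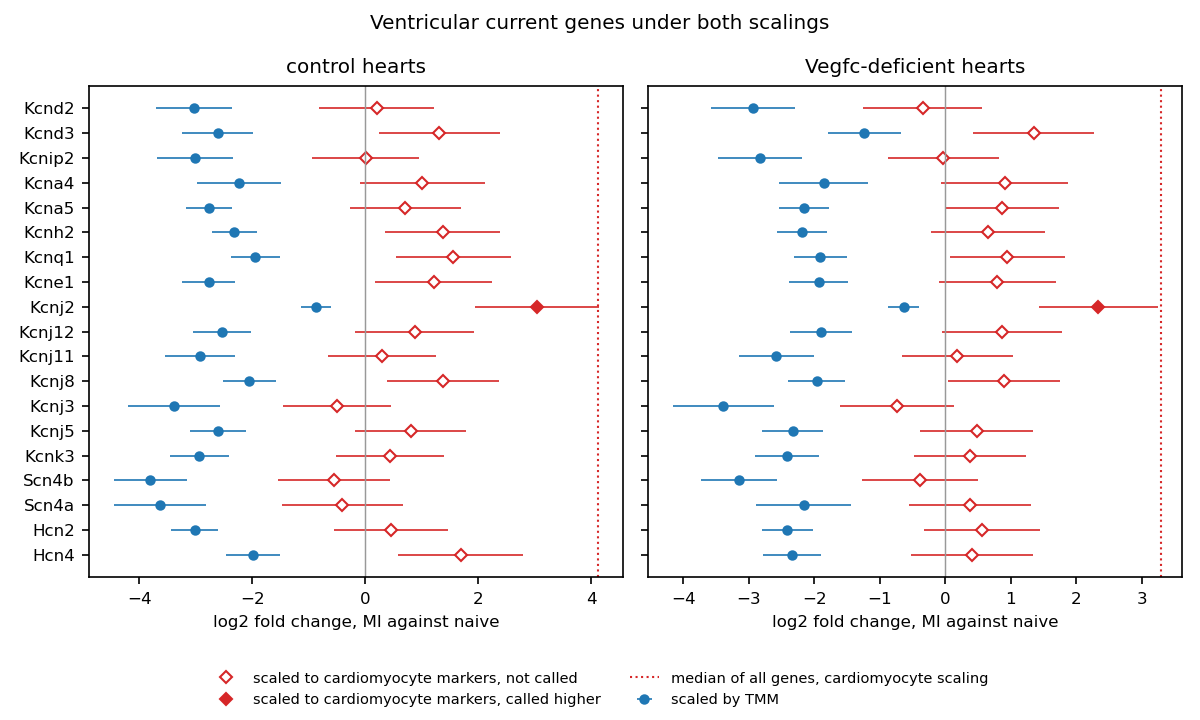
Log2 fold change after MI of 19 ventricular current genes scaled by TMM (circles) and to 12 cardiomyocyte markers (diamonds, filled where called higher), in control hearts (left) and Vegfc-deficient hearts (right), with standard errors as bars. The dotted line is the median of all genes under the second scaling, 4.11 in control and 3.29 in Vegfc-deficient hearts, and most ventricular genes lie between 0 and that line.

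No channel gene was called between control and Vegfc-deficient hearts. Between MI hearts of the 2 genotypes, 0 of 67 members passed, as did 0.0% of all genes, and by edgeR 3 members (4.48%) had an unadjusted p under 0.05, as did 7.94% of all genes. Those members were Kcnab1 (log2 difference -0.98, adjusted p = 0.584), Kcnk1 (-1.96, 0.585) and Kcnd3 (1.28, 0.626). The difference in Kcnd3 was 0.07 without M35. DESeq2 and limma-voom also called 0 members in the comparisons of MI hearts, of naive hearts and of the MI response. Kcnab1 and Kcnk1 were the 2 members (2.99%) whose MI groups did not overlap, both lower in Vegfc-deficient hearts, against 12.1% of all genes. Kcnk1 was at 0.538, 1.12 and 1.72 CPM in MI control and 0.176, 0.461 and 0.207 CPM in MI Vegfc-deficient hearts. Next in order were Scn4b (1.19) and Scn10a (1.0), both of whose groups overlapped. For the 22 ventricular genes the groups overlapped in every case. The 95% confidence interval of the log2 difference was -1.20 to 1.5 for Kcnip2 and -0.31 to 0.75 for Kcnj2, with 3 hearts a group.

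In naive hearts 0 members passed, as did 0.0% of all genes, and 1 member (1.49%), Kcnn1, had an unadjusted p under 0.05, as did 3.38% of all genes (log2 difference 0.60, edgeR adjusted p = 1.0). All 3 naive Vegfc-deficient libraries lay above or below both control libraries in 17 members (7 above and 10 below), which is 25.4% of them beside 22.4% of all genes. Without the library labelled naive Vegfc-deficient M149, edgeR called 0 members as well. Kcnma1 (2.17), Kcnj15 (1.02), Kcns1 (-1.79) and Kcns3 (-0.84) followed by unadjusted p, each at an adjusted p of 1.0 by edgeR. The fitted value of Kcnma1 was 5.08 without M44 and 1.28 without M45. The change after MI differed between genotypes in 0 members and in 0.0% of all genes, with 2 members (2.99%) and 8.3% of all genes at an unadjusted p under 0.05. The members were Kcnn1 (log2 difference of the changes -0.77, edgeR adjusted p = 0.563), whose fall was larger in Vegfc-deficient hearts, and Scn10a (1.77, 0.569), whose fall was smaller. Kcnma1 (-2.23), Kcnab1 (-1.06) and Kcnj15 (-1.16) came next, and the value of Kcnma1 was -5.14 without M44 and -1.34 without M45.

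Genes that work with these channels were read from 2 lists. Of 22 partners and regulators, 19 were tested, 14 were lower and 1 higher after MI in control hearts, and 12 were lower and 3 higher in Vegfc-deficient hearts, with median log2 fold changes of -2.23 and -1.28. Over all genes 24.1% were lower and 26.3% higher in control hearts, and 27.7% and 30.0% in Vegfc-deficient hearts. Cav3, which encodes the muscle caveolin that scaffolds channels, was at 119 and 121 CPM in naive control hearts, 128, 155 and 140 CPM in naive Vegfc-deficient hearts, 23.1, 33.8 and 16.7 CPM in MI control hearts and 29, 15.9 and 24.6 CPM in MI Vegfc-deficient hearts, and had log2 fold changes of -2.29 and -2.60 (edgeR adjusted p = 0.000332 and 6.65e-05). Fgf14, an intracellular factor that binds sodium channels, rose from 1.78 to 2.54 CPM in naive to 7.84 to 16.7 CPM in MI hearts (2.75 and 2.52, edgeR adjusted p = 0.000341 and 0.000103).

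Of 10 genes of the sodium pump and ion exchange, 4 were lower and 2 higher in control hearts, where 24.1% of all genes were lower and 26.3% higher. In Vegfc-deficient hearts 3 were lower and 3 higher, near the shares of all genes (27.7% and 30.0%). Fxyd1, which encodes the pump regulator phospholemman, was at 537 and 589 CPM in naive control hearts, 483, 605 and 549 CPM in naive Vegfc-deficient hearts, 154, 151 and 90.1 CPM in MI control hearts and 185, 91.5 and 154 CPM in MI Vegfc-deficient hearts. It had log2 fold changes of -2.09 and -1.93 (edgeR adjusted p = 0.000561 and 0.000323). Its relative Fxyd5 rose (log2 fold changes 1.55 and 1.31, edgeR adjusted p = 0.00319 and 0.00266).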

How the data were processed

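RNA was taken from infarcted left ventricle 9 days after permanent ligation, or from naive left ventricle, of control and Vegfc-deficient mice, and sequenced from TruSeq Stranded mRNA libraries. The authors deposited raw read counts per gene for each of the 11 libraries. Per the submitters' processing notes the tools included cutadapt 1.13, STAR, HTSeq 0.6.1p1 and DESeq2 1.14.1 with build mm10, and the strand setting of the counting is not given in the sources used here. The count files named 25006 Ensembl genes, of which 24942 were found in GENCODE M21 (GRCm38), the source of exon lengths and coordinates.

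Counts were fitted with edgeR 4.0.16 (R 4.3.3) in 1 model of all 11 libraries with 4 groups, after edgeR's filter on low counts and TMM scaling. Contrasts were tested with the quasi-likelihood test, Benjamini-Hochberg adjustment over all genes and a threshold of 0.05. RPKM is TMM-scaled CPM divided by merged exon length. A fold against a group with no count is given against a floor of 3 counts over the group, and 95% intervals of count ratios cover counting error only. A further fit scaled counts to 12 cardiomyocyte markers. Alternatives were DESeq2 size factors, the DESeq2 1.42.0 Wald test, limma-voom (limma 3.58.1) with quality weights, other filters, thresholds and gene lengths, TMM without ribosomal, haemoglobin, mitochondrial and cardiomyocyte marker genes, fits of only the groups compared, and leaving out each library.

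Groups came from the labels. Replicates differed by 8.65 to 172 times the counting noise, and p-values measure the spread between these libraries. The members, roles and lists were chosen with earlier results of these data known. The genes given in full were the 22 of the ventricular currents, up to 12 other members called in the same direction in both genotypes, up to 5 per genotype comparison by unadjusted p, and up to 3 of each of the lists of partners and of pump genes. Other members are named to account for the set, and a few genes of these lists are not reported here. Promoters came from RefSeq (GRCm38.p6), which held 47 of the 68 members.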

Additional observations from a re-analysis of the deposited data

How the results depend on the processing

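The numbers of members called higher or lower stayed within 1.5 times their values under each alternative to the TMM-scaled fit, but not under the scaling to cardiomyocyte markers, where the lower members went from 29 to 0 in both genotypes and the higher ones from 15 to 37 in control and from 13 to 35 in Vegfc-deficient hearts. No named gene reversed its sign past a threshold under the alternatives to the TMM-scaled fit, whereas on the cardiomyocyte marker scale genes called lower turned to called higher, among them Kcnj2 in both genotypes and Kcnk2 and Kcnn1 in control hearts. Over all genes, the calls after MI in control hearts (7450 genes) were 4798 at an adjusted p under 0.01, 4550 when the absolute log2 fold change also had to reach 1, and 4574 to 7636 when 1 library was left out, with the lowest values without M45 (4574) and M44 (4880). In Vegfc-deficient hearts 4965 genes passed when it had to reach 1, and 6909 to 8564 with 1 library left out. Between genotypes after MI, edgeR called 0 genes, the DESeq2 Wald test 51, and leave-one-out fits 0 to 1. Between naive genotypes edgeR called 0 genes, DESeq2 14, limma-voom 6, the fit of only these groups 2, and leave-one-out fits 0 to 17, the highest without the library labelled naive Vegfc-deficient M149. For the difference of the MI responses DESeq2 called 55 genes and leave-one-out fits 0 to 1. The cause of these shifts was not tested. Scaling to cardiomyocyte markers moved the median log2 fold change of all genes by 3.99 in control and 3.19 in Vegfc-deficient hearts, and on that scale the members called higher numbered 30 to 39 and 32 to 41 with 1 library left out. Of the single-gene values, 724 kept direction and call under the settings that used all libraries, 11 lost the call and 3 gained it, and with 1 library left out these numbers were 882, 28 and 3. With the longest transcript as gene length, 35 members in place of 32 were above 1 RPKM in naive control hearts. No paired analysis was possible because mouse numbers are not shared between groups. Groups of 2 or 3 hearts limit what the genotype comparisons could detect, and members with few counts, such as Kcnq3, Kcna3, Kcnh1 and Kcnma1 in naive hearts, carry wide counting error.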
